A study of Mus musculus with 6 samples.

Results

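The genes described here are 35 markers that neurobiologists use to recognise neurons and their synapses, read in astrocytes of the C8-D1A line (also written C8D1A), a cloned mouse line, after pulsed radiofrequency (PRF). A probe was assigned to a gene when the transcript named for it in the array files belonged to that gene in the RefSeq table of assembly GRCm38.p6. All 35 genes had at least 1 probe, 56 probes in total, among 22911 genes with a named probe. RNA of PRF-treated cells was read on 3 arrays and RNA of untreated control cells on another 3, from 3 independent experiments in each group. Both groups were the same unmodified cell line, grown in serum and moved to serum-free medium before use, so a single clone stands for astrocytes here and no animal was sampled. PRF is an electrical stimulation given in short high-frequency bursts. The sources used here do not give its settings or when RNA was taken. The comparison asks how astrocyte gene expression differs after a stimulation that is used against neuropathic pain.

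In neurons, transmitter is packed into vesicles by transporters, and the vesicles fuse with the membrane when SNARE proteins of vesicle and membrane zip together under the control of synaptotagmins and complexins. The axon is held open by neurofilaments, and the identity of the neuron is kept partly by RNA-binding proteins that control splicing and mRNA stability. Outside neurons many of these genes are held down by the repressor REST, which binds the RE1 element. Astrocytes normally carry few of these transcripts, although several genes used as neuronal markers, such as Uchl1 and Map2, can also be found in cultured non-neuronal cells.

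Of the 35 genes, 8 were higher after PRF, 2 were lower, 14 were tested and did not pass, and 11 were too dim to test. The 8 that rose were Slc32a1, Nefh, Reln, Elavl3, Cplx1, Ina, Snap25 and Cplx2, and the 2 that fell were Stx1a and Elavl4. Values are log2 signals minus the array's 75th percentile, called levels below, and a change is the PRF mean minus the control mean on that scale. A gene passed when its Benjamini-Hochberg adjusted p, taken over 34838 tested probes in limma, was under 0.05. Among all 15069 tested genes 16.3% were higher and 13.5% were lower by the same rule, against 33.3% and 8.33% of the 24 tested marker genes. Probes entered the test when every array of a group, 3 of 3, read them well above background. A gene dim in control cells could thus be tested only through bright PRF arrays, and the shares over tested genes are not shares of all 35. Precision is limited by having 3 arrays in each group, and p-values rest on how far independent experiments differ. In a cell population, more cells of a kind and more RNA per cell cannot be told apart.

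Astrocyte markers were checked first. Of 15 astrocyte identity genes, 12 were above background in both groups, including Gfap, Aqp4, Aldh1l1 and S100b, while Slc1a3, Gja1 and Gjb6 missed the well-above-background mark on every array. Across the array 62.1% to 63.9% of probes were well above background on the PRF arrays and 59.5% to 61.2% on the control arrays. Arrays of the same group correlated at 0.994 to 0.997 and arrays of different groups at 0.959 to 0.977. All 6 arrays lay on 1 slide in 2 rows: PRF replicate 2 with control replicates 1 and 3 in row 1, and PRF replicates 1 and 3 with control replicate 2 in row 2.

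Neuronal markers were readable in these astrocytes without stimulation about as often as genes of the array in general. A gene counted as detected when all 3 arrays of a group read a probe of it well above background. That held for 23 of the 35 genes in PRF cells and 22 in control cells, beside 14919 and 14200 of all 22911 genes with a named probe. The 9 genes whose probes were below that mark on every array were Rbfox3 (the nuclear antigen NeuN), Dcx (doublecortin, a microtubule protein of young neurons), Stmn2 (a tubulin-binding protein of growing axons), the vesicular glutamate transporters Slc17a6 and Slc17a7, the GABA-synthesising enzymes Gad1 and Gad2, and the calcium buffers Calb1 and Calb2. Those include the genes most used to call a cell a mature glutamatergic or GABAergic neuron. Among the 56 probes, 26 were below background on every control array, and 4 of these (15.4%) were above it on all 3 PRF arrays. Over all probes of the array the same shift held for 1133 of 21065 (5.38%). In the other direction 0 of 21 probes were lost from PRF cells, beside 80 of 19206 (0.417%) over the whole array. The 4 gained probes were both probes of Nefh, the probe of Slc32a1 and a dim probe of Dlg4.

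**Figure D1:**
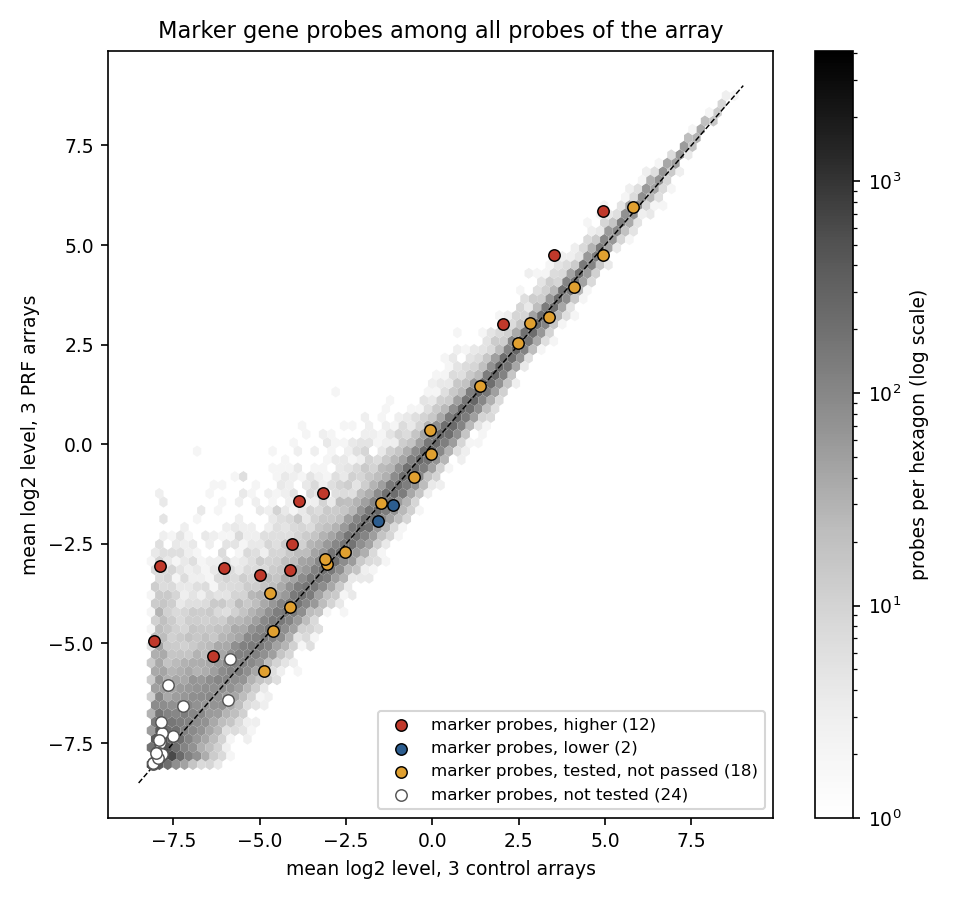
Mean log2 level on the 3 PRF arrays (vertical axis) against the 3 control arrays (horizontal axis), with all 56605 probes as grey hexagons (darker holds more probes, log scale) and the 56 marker probes as circles, red for higher, blue for lower, orange for tested but not passed and white for not tested. Red circles lie above the dashed line of equal level, most of them in the dimmer part, where the cloud of all probes also widens upward.

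**Figure D2:**
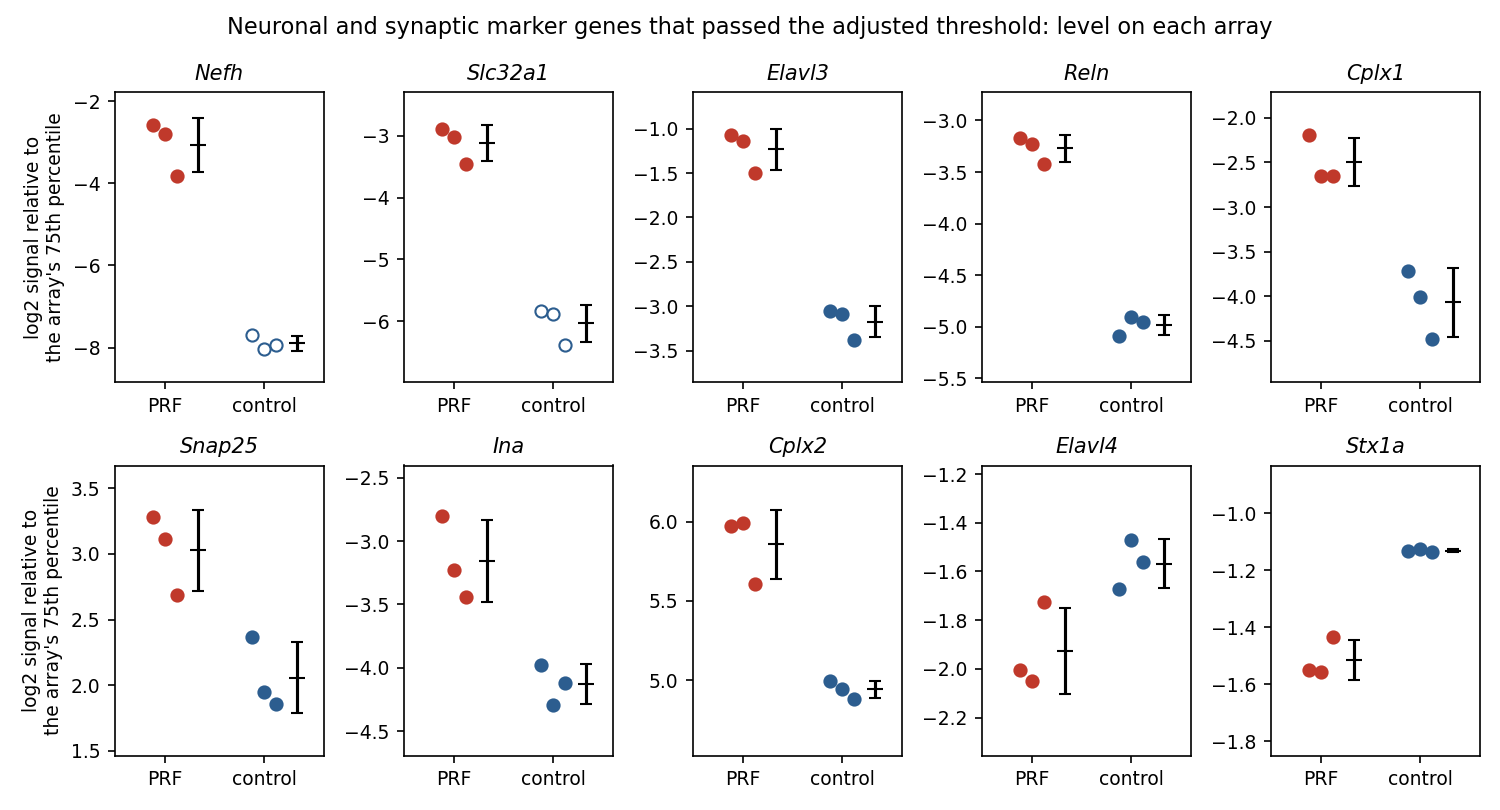
Log2 level relative to the array's 75th percentile (vertical axis) for the 10 marker genes that passed the test, with the 3 PRF arrays left (red) and the 3 control arrays right (blue) in each panel. Open circles are arrays below background, bars are the mean with its SD, and no gene's groups overlap.

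Promoter sequences are shown because the genes that rose share no single role and REST or activity-driven factors are textbook regulators of such genes. RefSeq promoter windows of 300 bases, 250 before and 50 after the annotated start, were at hand for 26 of the 35 genes and for 6 of the 8 that rose. The windows below are from GRCm38.p6, written 5′ to 3′ on the gene's own strand, with capitals at any match. Slc32a1 lies at chr2:158610508-158610807 (plus strand) and Ina at chr19:47014431-47014730 (plus strand), and both rose. Elavl3, at chr9:22051974-22052273 (minus strand), rose and holds no match. Syn1, at chrX:20920869-20921168 (minus strand), and Th, at chr7:142899946-142900245 (minus strand), were tested and did not pass.
Slc32a1: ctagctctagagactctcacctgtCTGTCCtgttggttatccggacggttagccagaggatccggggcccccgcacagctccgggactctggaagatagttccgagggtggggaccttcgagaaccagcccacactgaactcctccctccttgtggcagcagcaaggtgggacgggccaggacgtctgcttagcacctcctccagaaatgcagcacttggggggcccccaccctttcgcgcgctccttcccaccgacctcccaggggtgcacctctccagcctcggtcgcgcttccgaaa
Ina: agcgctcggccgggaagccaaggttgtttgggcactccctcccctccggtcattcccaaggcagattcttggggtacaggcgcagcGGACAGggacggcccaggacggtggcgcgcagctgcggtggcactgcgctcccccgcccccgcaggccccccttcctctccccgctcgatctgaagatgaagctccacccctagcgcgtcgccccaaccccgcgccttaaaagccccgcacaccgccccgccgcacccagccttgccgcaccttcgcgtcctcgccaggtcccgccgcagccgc
Elavl3: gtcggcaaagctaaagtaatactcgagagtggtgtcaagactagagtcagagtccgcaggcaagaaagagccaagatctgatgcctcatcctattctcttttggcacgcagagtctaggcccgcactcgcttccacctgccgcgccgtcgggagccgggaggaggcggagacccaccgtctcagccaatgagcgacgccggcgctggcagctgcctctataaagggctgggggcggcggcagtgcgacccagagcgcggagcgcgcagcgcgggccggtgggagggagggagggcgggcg
Syn1: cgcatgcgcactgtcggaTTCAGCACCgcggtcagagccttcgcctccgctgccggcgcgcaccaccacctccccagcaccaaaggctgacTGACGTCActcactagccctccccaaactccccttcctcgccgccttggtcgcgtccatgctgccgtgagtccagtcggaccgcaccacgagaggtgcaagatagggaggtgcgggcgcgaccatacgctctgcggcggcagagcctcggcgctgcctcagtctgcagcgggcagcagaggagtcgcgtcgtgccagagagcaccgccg
Th: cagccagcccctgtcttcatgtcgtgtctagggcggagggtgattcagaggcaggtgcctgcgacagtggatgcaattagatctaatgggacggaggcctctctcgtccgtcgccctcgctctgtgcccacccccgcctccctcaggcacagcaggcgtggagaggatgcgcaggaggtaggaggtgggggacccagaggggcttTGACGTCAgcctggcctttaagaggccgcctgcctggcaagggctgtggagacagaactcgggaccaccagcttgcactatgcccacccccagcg
The capitals mark GGACAG, the right part of RE1 (in Slc32a1 as its reverse complement, 226 bases before the start, and in Ina 164 bases before it), TTCAGCACC, the left part of RE1 (Syn1, 232 bases before), and TGACGTCA, the cyclic AMP response element (Syn1, 159 bases before, and Th, 45 bases before). Both strands were searched and none of the printed matches overlaps another.

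GGACAG was in the window of 9 of the 26 marker genes, Gad2, Ina, Map2, Pvalb, Slc17a6, Slc17a7, Slc32a1, Syt1 and Tubb3, of which 2 rose, and 24.7% of the 27025 genes in the table hold it. TTCAGCACC was in Syn1 alone, against 0.433% of all genes. TGACGTCA was in Syn1 and Th, against 2.03% of all genes, and the EGR site GCGTGGGCG was in 0 of the 26, against 0.707%. The windows of the 6 genes that rose had a GC content of 53.3% to 80.7%, and the median over all windows was 52.7%. A match is a run of letters, and no match says only that these letters are not in the window.

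Among the genes of vesicle fusion, the membrane SNARE Snap25 and the complexins Cplx1 and Cplx2 rose and the membrane SNARE Stx1a fell. Snap25 had levels of 3.28, 3.12 and 2.69 on the PRF arrays, against 2.36, 1.95 and 1.85 on the control arrays. Every PRF array lay above every control array, and the mean level was 3.03 ± 0.31 in PRF cells and 2.06 ± 0.27 in control cells (SD, n = 3 each). That made Snap25 1.96-fold higher (log2 change 0.97, SE 0.20, adjusted p = 0.0127). Its other probe missed the well-above-background mark on every array. Snap25 forms a complex with Stx1a, which went the opposite way: -1.55, -1.56 and -1.43 in PRF cells, against -1.13, -1.13 and -1.14 in control cells. The control arrays were almost level with each other and all 3 PRF arrays lay below them. Stx1a was 1.30-fold lower (log2 change -0.38, SE 0.06, adjusted p = 0.00686).

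Complexins clamp SNARE complexes until calcium arrives and promote fusion afterwards. Cplx1 had levels of -2.19, -2.65 and -2.65 in PRF cells, against -3.71, -4.01 and -4.49 in control cells. The groups were apart by more than 1 log2 unit at their nearest arrays, and Cplx1 was 2.98-fold higher (log2 change 1.58, SE 0.22, adjusted p = 0.00358). With normexp background correction, which shrinks dim signals towards each other, that change was 0.81 and still passed. Cplx2, bright in both groups, had levels of 5.97, 6.00 and 5.61 in PRF cells, against 5.00, 4.94 and 4.88 in control cells. All PRF arrays were above all control arrays, 1.89-fold on average (log2 change 0.92, SE 0.12, adjusted p = 0.00249). Its second probe read 5.30, 4.11 and 4.86 against 3.44, 4.01 and 3.08, a noisier pair of groups that still did not overlap (log2 change 1.24, SE 0.35, adjusted p = 0.0401).

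The remaining vesicle genes did not pass. Vamp2, the vesicle SNARE that pairs with Snap25 and Stx1a, had levels of 2.55, 2.56 and 2.51 in PRF cells, against 2.46, 2.56 and 2.41 in control cells. The 6 values overlapped (log2 change 0.06, SE 0.07, adjusted p = 0.502). Syp, synaptophysin, an abundant vesicle membrane protein, had -0.26, -0.22 and -0.23 against -0.05, -0.17 and 0.09. Each PRF array of Syp was below each control array, by less than the test asks for (log2 change -0.19, SE 0.08, adjusted p = 0.131). Under spike-in scaling Syp passed as lower (-0.38, adjusted p = 0.0120). Syn1 and Syn2, synapsins, tie vesicles to the cytoskeleton. Syn1, whose promoter above holds a left part of RE1, had -1.35, -1.57 and -1.51 in PRF cells, against -1.45, -1.59 and -1.43 in control cells (log2 change 0.01, SE 0.09, adjusted p = 0.942). Syn2 was near background, at -5.33, -5.07 and -6.70 in PRF cells, where 2 arrays read above background, against -5.02, -4.45 and -5.15 in control cells (log2 change -0.83, SE 0.44, adjusted p = 0.201). Both synapsins had overlapping groups. The other Syn2 probe missed the well-above-background mark on every array. Syt1, the calcium sensor of fast release, was above background on 1 array of 6, PRF replicate 1, with levels of -5.36, -6.20 and -6.56 in PRF cells, against -7.14, -7.95 and -7.85 in control cells. Sncb, beta-synuclein, was above background on 2 PRF arrays and 1 control array. Neither gene was tested.

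In the neuronal cytoskeleton, the heavy neurofilament Nefh and alpha-internexin (Ina) rose, and the light and medium neurofilaments did not. Nefh had levels of -2.57, -2.80 and -3.82 in PRF cells, against -7.69, -8.05 and -7.95 in control cells. The control values are background, so the difference has only a bound: Nefh was at least 6.53-fold higher after PRF (fitted log2 change 4.83, SE 0.32, adjusted p = 2.30e-04). Such a bound divides the PRF mean by a control mean in which each array gives the larger of 2 signals: the probe's own, and the dimmest among all probes well above background. The second probe of Nefh gave at least 1.79-fold (-4.41, -4.97 and -5.41 in PRF cells, against -8.14, -8.04 and -7.94 in control cells, adjusted p = 4.00e-04). With normexp the fitted change of Nefh was 1.24. Ina, a neurofilament subunit that appears early in development, had -2.80, -3.23 and -3.44 in PRF cells, against -3.97, -4.29 and -4.12 in control cells. The lowest PRF array was above the highest control array, and Ina was 1.96-fold higher (log2 change 0.97, SE 0.18, adjusted p = 0.00856), or 0.43 on the log2 scale with normexp.

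The partners of Nefh in the filament leaned the other way without passing. Nefl had levels of -0.70, -0.86 and -0.89 in PRF cells, against -0.63, -0.56 and -0.39 in control cells (log2 change -0.29, SE 0.09, adjusted p = 0.058). Nefm had 4.71, 4.78 and 4.80 against 4.94, 4.97 and 4.93 (log2 change -0.19, SE 0.06, adjusted p = 0.0623), and its second probe gave -0.18 (SE 0.06, adjusted p = 0.0833). For both genes every PRF array lay below every control array, and both passed as lower when arrays were scaled by their median, by quantiles, by spike-in probes or not at all. Gap43, a growth cone protein, had 3.12, 2.99 and 3.04 in PRF cells, against 2.83, 2.79 and 2.88 in control cells. The Gap43 groups did not overlap either (log2 change 0.22, SE 0.07, adjusted p = 0.0543). Gap43 passed as higher with normexp, but not under median, quantile or spike-in scaling or on unscaled values.

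Tubb3, the class III beta-tubulin of neurons, had 3.93, 4.07 and 3.87 in PRF cells, against 4.003, 3.999 and 4.28 in control cells (log2 change -0.14, SE 0.10, adjusted p = 0.35). Map2, a microtubule protein of dendrites, had 1.45, 1.49 and 1.43 against 1.33, 1.497 and 1.33 (log2 change 0.07, SE 0.07, adjusted p = 0.485), and 0.04 at its second probe (SE 0.09, adjusted p = 0.772). Both had overlapping groups. Uchl1, a ubiquitin hydrolase abundant in neurons, had 5.95, 5.90 and 5.98 in PRF cells, against 5.87, 5.79 and 5.76 in control cells. Its groups were apart by less than 0.1, and it did not pass (log2 change 0.14, SE 0.06, adjusted p = 0.157).

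The neuronal RNA-binding proteins Elavl3 and Elavl4, which bind AU-rich mRNAs and are paralogues, went in opposite directions. Elavl3 had levels of -1.07, -1.13 and -1.50 in PRF cells, against -3.06, -3.09 and -3.38 in control cells. All 6 values were above background and the gap between groups was wider than the range within either. Elavl3 was 3.84-fold higher (log2 change 1.94, SE 0.15, adjusted p = 3.46e-04). Its second probe read -1.02, -1.29 and -1.96 against -3.40, -3.89 and -4.25, a 5.37-fold difference (SE of the log2 change 0.30, adjusted p = 0.00218). Elavl4 had -2.01, -2.05 and -1.73 in PRF cells, against -1.67, -1.47 and -1.56 in control cells. The PRF arrays were lower, PRF replicate 3 only just, and Elavl4 passed narrowly as 1.28-fold lower (log2 change -0.36, SE 0.11, adjusted p = 0.0494). Leaving out any control array, PRF replicate 1 or PRF replicate 2 ended the call (adjusted p = 0.0664 to 0.142), as did fits with the replicate block (0.073) or without a filter (0.101). Without PRF replicate 3 it passed at 0.0145. The other Elavl4 probes missed the well-above-background mark on every array.

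Of the genes that define a neuron's transmitter, the vesicular GABA and glycine transporter Slc32a1 rose. It had levels of -2.89, -3.01 and -3.45 in PRF cells, against -5.83, -5.89 and -6.39 in control cells, where it was below background on all 3 arrays. Slc32a1 was at least 6.23-fold higher (fitted log2 change 2.92, SE 0.20, adjusted p = 2.63e-04), and with normexp the fitted change was 0.95. Gad1 and Gad2, which make the GABA that this transporter loads, missed the well-above-background mark on every array. Th, the first enzyme of dopamine synthesis, whose promoter above holds a cyclic AMP response element, had -2.55, -2.72 and -2.81 in PRF cells, against -2.61, -2.54 and -2.45 in control cells. Its groups overlapped (log2 change -0.16, SE 0.09, adjusted p = 0.235), and it passed as lower under quantile scaling (-0.33, adjusted p = 0.0222) and spike-in scaling (-0.35, adjusted p = 0.0358). The other Th probe missed the well-above-background mark on every array.

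Chat, which makes acetylcholine, had -3.13, -3.80 and -4.24 in PRF cells, against -4.15, -4.32 and -5.61 in control cells. PRF replicate 3 fell among the control values (log2 change 0.97, SE 0.45, adjusted p = 0.151), and a second Chat probe gave -0.09 (SE 0.20, adjusted p = 0.775). Chat passed as higher with normexp and with the replicate block, but not under median, quantile or spike-in scaling or on unscaled values. Dlg4, the postsynaptic scaffold PSD-95, had 0.36, 0.46 and 0.23 in PRF cells, against -0.70, 0.18 and 0.35 in control cells. Control replicate 1 alone was far below the rest (log2 change 0.41, SE 0.27, adjusted p = 0.292). A dim Dlg4 probe, above background only on the PRF arrays, gave at least 1.37-fold (adjusted p = 0.00246), and the remaining tested probe gave 0.23 (SE 0.10, adjusted p = 0.125), so the probes of Dlg4 disagree on the call.

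Reln, reelin, the secreted glycoprotein that guides neuronal layering and is later made by interneurons, rose. Its levels were -3.17, -3.22 and -3.42 in PRF cells, against -5.09, -4.91 and -4.95 in control cells. The spread within each group was small beside the gap, with means of -3.27 ± 0.13 in PRF cells and -4.99 ± 0.10 in control cells (SD, n = 3 each). Reln was 3.28-fold higher (log2 change 1.71, SE 0.09, adjusted p = 1.31e-04), and its change was 0.66 with normexp. The other Reln probe missed the well-above-background mark on every array. Pvalb, the calcium buffer of fast-spiking interneurons, had -3.91, -4.29 and -4.01 in PRF cells, against -4.02, -4.07 and -4.27 in control cells. These values overlapped (log2 change 0.05, SE 0.12, adjusted p = 0.789).

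**Figure D3:**
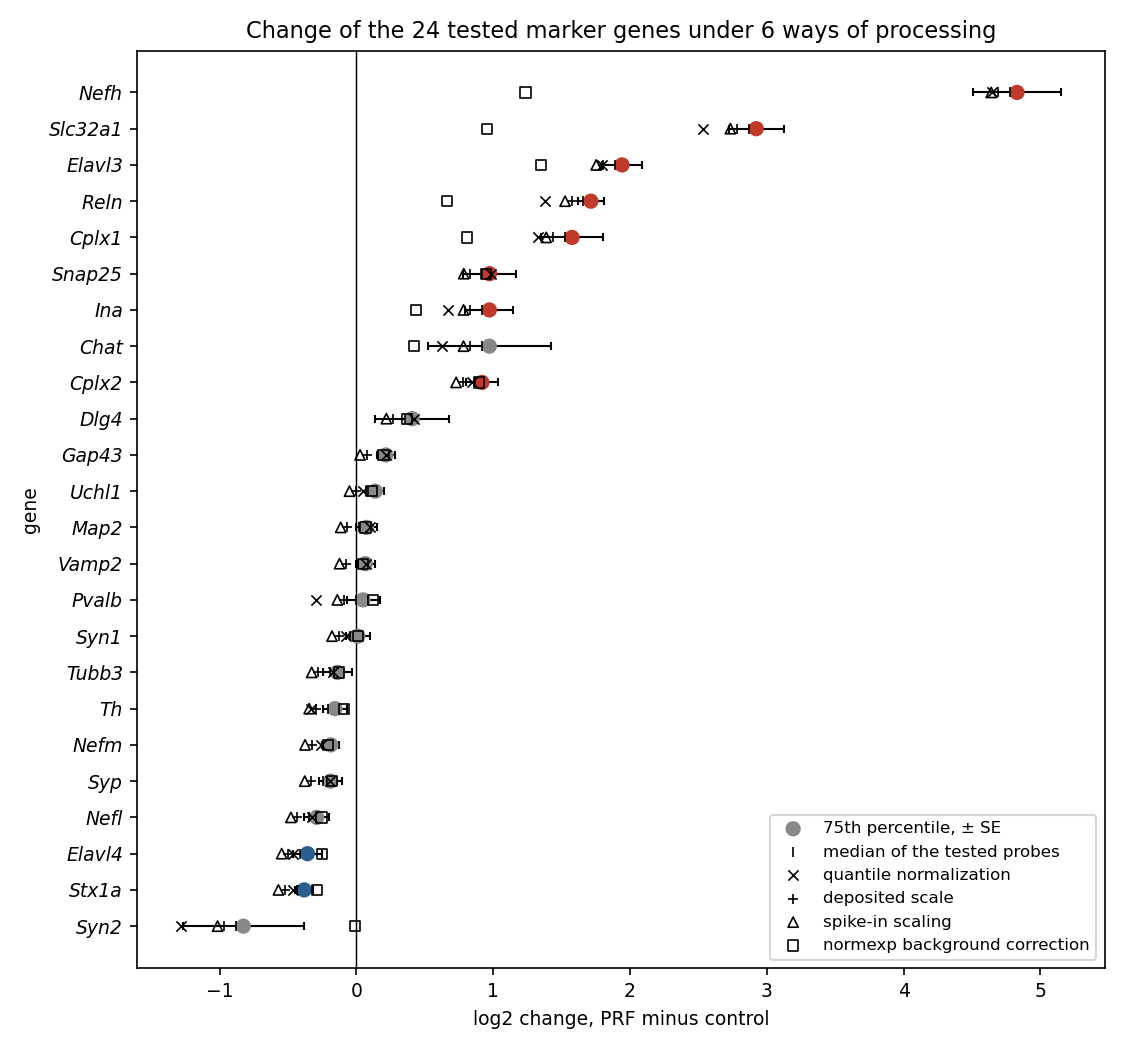
Log2 change, PRF minus control (horizontal axis), of the 24 tested marker genes, sorted by size, as a filled circle with its SE (red for genes that rose, blue for genes that fell, grey for the rest) and as small symbols under 5 other ways of processing. The 8 genes that rose span 0.92 (Cplx2) to 4.83 (Nefh, fitted against background) and stay right of 0 under each, while squares (normexp) lie nearer to 0 for the dim genes.

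Most of the rises were in the dimmer range of the array. Below the median level of all tested genes, 16 marker genes were tested, of which 6 rose (Cplx1, Elavl3, Ina, Nefh, Reln and Slc32a1) and 2 fell, and 25.2% of all tested genes in that range were higher. At or above it, 8 marker genes were tested and 2 rose (Cplx2 and Snap25), beside 7.35% of all tested genes. Of the 8 rises 5 were at least 2-fold by the fit, beside 1214 of the 2455 genes higher across the array. Counted over tested genes, these are 5 of the 24 marker genes, beside 8.06% of all tested genes. The groups did not overlap for 15 of the 24 tested marker genes, 10 with PRF above and 5 with PRF below, beside 51.1% of all tested genes. The median change of the 24 genes was 0.11, and that of all tested genes was -0.01.

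PRF replicate 3 was the nearest PRF array to control in all 8 genes that rose and both that fell, and it was so in 71.2% of the 2455 genes higher and 71.5% of the 2030 lower across the array. The 8 risers were called whichever single array was left out. Within row 1 the changes of Snap25, Cplx1, Cplx2, Nefh, Ina, Elavl3, Slc32a1 and Reln were 1.01, 1.45, 1.06, 5.02, 0.81, 2.09, 3.1 and 1.80. Within row 2 they were 1.04, 1.59, 0.85, 4.85, 1.17, 1.80, 2.72 and 1.61, in the same order. Stx1a had -0.42 in row 1 and -0.37 in row 2, and Elavl4 had -0.43 and -0.39. These are values only, since row 1 holds a single PRF array and row 2 a single control array.

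Related genes outside the 35 were read as lists, to be set beside the 16.3% higher and 13.5% lower of all tested genes. Near that share, 15.4% of tested presynaptic genes, 17.6% of postsynaptic and adhesion genes and 18.2% of cytoskeleton genes were higher. The share was larger in the RNA-binding (38.5%), neurogenic (63.6%) and transmitter (4 of 10) lists, and smaller in the REST list. In the presynaptic list 26 of 39 genes were tested, 4 rose and 2 fell, with a median change of -0.04. Snap23, the close relative of Snap25 that serves fusion outside neurons, was 1.76-fold higher (log2 level 3.63 ± 0.25 in PRF cells and 2.81 ± 0.06 in control cells, SD, n = 3 each, adjusted p = 0.00556). Cplx3, a complexin of retinal and some cortical neurons, was at least 1.67-fold higher (adjusted p = 0.00562), so Cplx1, Cplx2 and Cplx3 all rose. Unlike Cplx1 and Cplx2, Cplx3 was below background on every control array. It was tested only through its PRF arrays, where it stayed dim (mean level -5.04). Sncg, gamma-synuclein, rose by 1.40 on the log2 scale (adjusted p = 0.0122), and Rab3a, a vesicle GTPase, fell by 0.31 (adjusted p = 0.0112). In the postsynaptic and adhesion list 17 of 22 genes were tested, 3 rose and 1 fell, with a median of -0.04. Nrxn2, a presynaptic adhesion protein, was 6.39-fold higher (SE of the log2 change 0.26, adjusted p = 8.47e-04) and the kinase subunit Camk2b rose by 1.39 (adjusted p = 0.0014). Nlgn3, a neurexin partner, rose by 0.61 (adjusted p = 0.0231), a call lost without PRF replicate 2 (adjusted p = 0.0769) and under quantile scaling, normexp or the unscaled values. Nrxn3 fell by 0.68 (adjusted p = 0.038), a call lost in 5 of 6 fits that each left out 1 array (adjusted p up to 0.111).

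Among further genes of the cytoskeleton and axon growth 22 of 23 were tested, 4 rose and 2 fell, with a median of -0.01. Stmn3, a relative of the undetected Stmn2, was 6.67-fold higher (log2 level -1.94 ± 0.36 in PRF cells and -4.67 ± 0.14 in control cells, SD, n = 3 each, adjusted p = 2.52e-04). Kif5a, a neuronal kinesin that carries neurofilaments, rose by 1.17 (adjusted p = 5.65e-04) and Stmn4 by 0.59 (adjusted p = 0.00411). Prph, the intermediate filament of peripheral neurons, was 5.06-fold higher by the fit (adjusted p = 0.00246) and was above background on 1 control array. The general filament and tubulin genes did not pass, with changes of 0.16 for Vim (adjusted p = 0.119), -0.25 for Nes (adjusted p = 0.0766) and -0.03 for Tuba1a (adjusted p = 0.824).

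RNA-binding genes of neurons had 13 of 15 tested, 5 higher and 1 lower, with a median of 0.06, and 3 were higher under each other scaling. Celf5 rose by 1.91 (adjusted p = 9.74e-04), Srrm4, which drives neuronal microexon splicing, by 1.16 (adjusted p = 0.0129), and Rbfox1, a relative of Rbfox3, was at least 2.93-fold higher (adjusted p = 0.00563, above background on 1 control array). Nova2 fell by 0.32 (adjusted p = 0.033) and lost the call in 5 of 6 fits that each left out 1 array (adjusted p up to 0.1003). The widely expressed Elavl1 rose by 0.21 (adjusted p = 0.0461) and lost the call in each of those 6 fits (adjusted p 0.0589 to 0.127) and under each other scaling. Ptbp1, which represses neuronal splicing, had a change of 0.06 (adjusted p = 0.615).

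Neurogenic transcription factors had the highest median of the lists, 0.59, with 11 of 23 tested, 7 higher and 0 lower, and they were detected for 10 genes in PRF cells and 6 in control cells. Tbr1 was 2.42-fold higher by the fit (adjusted p = 4.54e-04, above background on 2 control arrays). Neurog2 was at least 5.58-fold higher (adjusted p = 0.00287, above background on 1 control array). Neurod2 was at least 3.74-fold higher (adjusted p = 0.00325) and Bcl11b at least 1.64-fold (adjusted p = 0.00507), and neither was above background in control cells. Of the transmitter synthesis and transport list 10 of 18 were tested and 4 rose, with a median of 0.05. The serotonin transporter Slc6a4 was at least 6.11-fold higher (adjusted p = 0.00127) and Hdc, which makes histamine, at least 4.45-fold (adjusted p = 2.70e-04), both from below background in control cells. The vesicular monoamine transporters Slc18a1 and Slc18a2 rose by 0.90 (adjusted p = 0.00256) and 0.43 (adjusted p = 0.00855), and Slc18a2 did not pass on spike-in scaled or unscaled values.

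Of the repressor REST and its partners all 15 genes were tested, 0 rose and 2 fell, with a median change of 0.03. Rest had levels of 2.18 ± 0.10 in PRF cells and 1.89 ± 0.20 in control cells (SD, n = 3 each, log2 change 0.29, SE 0.12, adjusted p = 0.118). Rcor2 fell by 0.34 (adjusted p = 0.00892). Sin3a fell by 0.47 (adjusted p = 0.0279) and lost the call in 4 of 6 fits that each left out 1 array (adjusted p up to 0.0900).

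**Figure D4:**
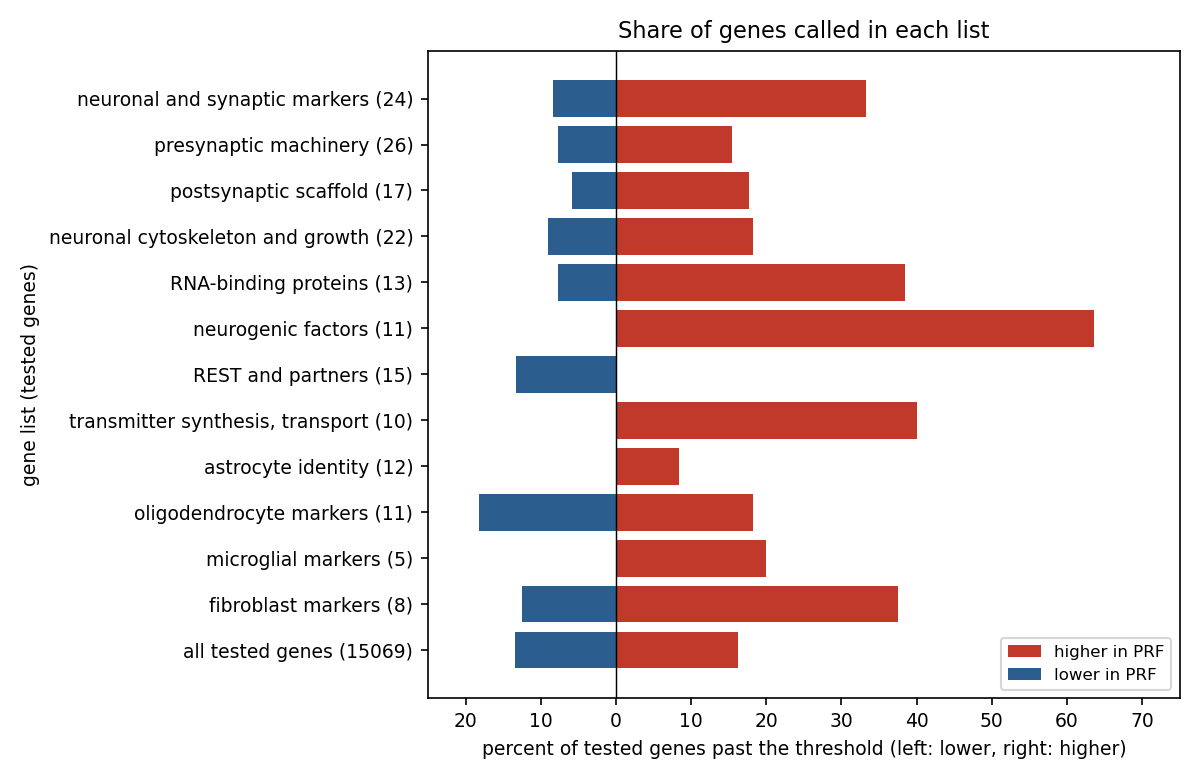
Percent of tested genes past the threshold in each gene list (horizontal axis, lower in PRF to the left in blue, higher in PRF to the right in red), with the number tested in brackets. Of the 24 neuronal and synaptic markers 33.3% were higher and 8.33% lower, and the bottom bars show 16.3% and 13.5% for all 15069 tested genes.

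Marker lists of glia and connective tissue are given beside the 16.3% higher and 13.5% lower of all tested genes. Of 15 astrocyte genes 12 were tested and Glul, glutamine synthetase, rose by 0.29 (adjusted p = 0.0177), and the median was 0.08. The Glul call was lost in 4 of 6 fits that each left out 1 array, on unscaled values (0.15, adjusted p = 0.334) and on spike-in scaled values (0.10, adjusted p = 0.339). In the oligodendrocyte list 11 genes were tested, with Mobp (at least 3.29-fold, adjusted p = 2.77e-04) and Mbp (0.99, adjusted p = 0.00847) higher. Mog and Sox10 were lower by the test (log2 changes -0.40 and -0.36), each lost in 4 or 5 of the 6 fits without an array. Of 10 microglia genes 5 were detected, Itgam rose by 0.86 (adjusted p = 0.00406), and Aif1, Cx3cr1, P2ry12, Trem2 and Ptprc missed the well-above-background mark on every array. In the mesenchymal list 8 of 10 were tested, and Col1a2 was 6.57-fold higher by the fit (adjusted p = 5.16e-04, above background on 1 control array). Col3a1 rose by 0.52 and Col1a1 by 0.44, while Pdgfrb fell by 0.32. Col1a1 and Pdgfrb lost the call in 5 of those 6 fits each, and Col3a1 lost it on unscaled values. The summed level of the 35 neuronal genes, as log2 of their summed linear levels, was 7.51 to 7.63 on the PRF arrays, against 7.30 to 7.33 on the control arrays. A few bright genes carry this sum, and without Cplx2, the gene with the largest linear difference, it was 7.06 to 7.08 on the PRF arrays, against 6.99 to 7.02 on the control arrays. The same sum was 6.51 to 6.54 against 6.36 to 6.47 for astrocyte genes, 7.30 to 7.42 against 7.44 to 7.48 for oligodendrocyte genes, 4.23 to 4.56 against 3.71 to 3.82 for microglia genes and 6.21 to 6.33 against 6.28 to 6.37 for mesenchymal genes. Without Itgam the microglia sum was 2.63 to 2.69 on the PRF arrays, against 2.22 to 2.57 on the control arrays. The part of cell make-up in the neuronal values was not tested. On spike-in scaled values, where changes shift down as a whole, 10 presynaptic and 9 cytoskeletal genes were lower in place of 2 each, and on unscaled values 5 oligodendrocyte genes in place of 2. Across all lists and the 35 markers, 55 genes passed, and 0 changed sign under any alternative scaling, background correction, filter, block or omission of an array.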

How the data were processed

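RNA of 3 PRF-treated and 3 control cultures was read on 1-colour Agilent arrays (Cy3). Per the file headers, the deposited intensity values are scanner output of Agilent Feature Extraction 10.7.3.1, with a processed signal already corrected for background, and flags for each spot. The deposited series table gives linear intensity that matched this signal to a relative 0.01 for 99.98% to 100% of probes, so no scaling between arrays had been applied. The sources used here do not give the authors' normalization or test. Signals at the 75th percentile were 634, 544 and 553 on PRF arrays and 674, 635 and 597 on control arrays.

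Control spots and outlier spots (63 to 85 per array) were left out, spots of a probe were averaged, and log2 values minus each array's 75th percentile were computed here from the deposited signal, for 56605 probes. The files give accessions, and 32994 probes were named through the RefSeq table of GRCm38.p6. The array's design refers to an older build, so probes carry no coordinates. The probe with the highest mean stood for its gene. limma 3.58.1 (lmFit, eBayes) in R 4.3.3 was fitted with group as the only term on probes well above background on all 3 arrays of a group, with Benjamini-Hochberg adjustment over 34838 probes and a threshold of 0.05. It was tested on simulated data. It called 10833 probes, 6415 higher and 4418 lower.

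All 35 markers are accounted for. Of every other list up to 4 genes with the smallest adjusted p are named, with Rest, Elavl1, Ptbp1, Vim, Nes and Tuba1a always. The markers, lists and motifs were chosen with earlier results of these data known. Alternatives were other scalings (array median, quantile, spike-in probes, none, as in the deposited table), normexp on the median signal with an offset of 50, other filters, array row and replicate number as blocks, single rows, each array left out, and the mean of a gene's probes.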

Additional observations from a re-analysis of the deposited data

How the results depend on the processing

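The count of marker genes higher in PRF (8) was 8 under each scaling and each omission of an array, 10 with normexp or the mean of probes, 9 without a filter, 6 with the filter on all 6 arrays (which leaves out Nefh and Slc32a1), and 5 within array row 1 and 0 within row 2. The count of lower marker genes (2) was 4 with median scaling, unscaled values, normexp or the mean of probes, 5 with quantile scaling, 6 with spike-in scaling, 1 without a filter, 0 within either row and 1 to 2 with an array left out. The 10833 called probes were 3209 within row 1, 162 within row 2 and 7221 to 10685 with an array left out. A row holds a single array of one group, so its counts say nothing of stability. The balance of calls moved with the scaling: 59.2% of called probes were higher here, 49.5% with median, 41.4% with quantile, 38.3% without and 29.3% with spike-in scaling, and 52.4% and 67.7% with the stricter and no filter. Unscaled and spike-in values gave a median change of tested probes of -0.12 and -0.17, beside 0.02 here, so small changes are relative to that shift. Changes that reversed had not passed: Syn1 (-0.044 median, -0.079 quantile, -0.13 unscaled, -0.18 spike-in, -0.14 row 1, -0.055 to 0.058 with an array left out), Pvalb (-0.0051, -0.30, -0.092, -0.14 in the same scalings, -0.018 with row as a block, -0.14 row 1, -0.030 to 0.16), Vamp2 (-0.076 unscaled, -0.12 spike-in, -0.028 row 2), Map2 (-0.067, -0.12, -0.058 likewise), Uchl1 (-0.0033 unscaled, -0.051 spike-in) and Syn2 (0.016 row 1). The sources used here do not say whether the replicate numbers pair the samples. The deviations of same-numbered arrays correlated at 0.15, -0.08 and 0.05. With so few arrays per group, these values cannot decide whether same-numbered arrays share an experiment. With the replicate block 9 marker genes were higher (Chat added), 1 lower (Elavl4 lost) and 9421 probes called. The causes of these shifts were not tested. Signal near background limits Nefh, Slc32a1, Syn2, Syt1 and Sncb to bounds or no call.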
